A study of Mus musculus with 20 samples.

Results

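Heat shock proteins and chaperones were followed in mouse brain as 10 named genes: Hspa8, Hspa5, Hspa4, Hsp90aa1, Hsp90ab1, Hsph1, Dnaja1, Dnajb1, Hspb1 and Stub1. Every probe set that the array's annotation assigns to one of these symbols alone was taken, whatever its values. This gave 22 probe sets for 9 of the 10 genes, among 12394 genes named in that way on the array. Hspa8 had 4 probe sets, Hspa4 and Hsp90aa1 had 3 each, and the other 6 genes had 2 each. No probe set carries the symbol Hsp90ab1 alone in the annotation used here, and Hsp90ab1 was not analysed here.

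The study hybridised total brain RNA of mice of 2 genotypes, knock-in and wild-type, to 20 single-channel oligonucleotide arrays. They form 8 groups: knock-in and wild-type, each with cerebellum and forebrain, each at 4 weeks (3 arrays per group) and at 11 weeks (2 arrays per group). The titles put the later age at 12 weeks and the descriptions at 11 weeks, and 11 weeks is used here. The labels name neither the knocked-in allele nor the strain, and no treatment other than age. They do not say whether a group's arrays stand for different animals: the p-values rest on the scatter among these arrays alone, and that scatter may be technical. An animal may also have given both a cerebellum and a forebrain array. Arrays were assigned to a region by the short code in the title. For 7 of the 10 forebrain arrays, all but the wild-type arrays at 4 weeks, another label field names cerebellum. The regional comparison is therefore also given for the wild-type arrays at 4 weeks alone. The differences of that comparison come from those arrays alone. Its p-values use the spread of the model of all 20 arrays, those with conflicting labels included.

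Chaperones bind unfolded stretches of other proteins and release them in cycles driven by ATP. In the cytosol, J-domain proteins such as Dnaja1 and Dnajb1 deliver a substrate to an Hsp70 such as Hspa8 and start its ATPase, Hsp110 proteins such as Hsph1 and Hspa4 exchange the nucleotide so that the substrate leaves, and Hsp90 takes over selected substrates for late folding. Hspa5 (BiP) does the work of Hsp70 inside the endoplasmic reticulum, Hspb1 is a small heat shock protein that holds aggregating proteins without ATP, and Stub1 (CHIP) is a ubiquitin ligase that docks on Hsp70 and Hsp90 and marks their substrates for degradation. Heat shock factors switch on many of these genes by binding inverted GAA repeats in their promoters, and Hspa5 is controlled by the unfolded protein response through the ER stress response element. In neurons this system is known for its action on misfolded, polyglutamine-expanded proteins.

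Promoter stretches are shown for the members that have one in the RefSeq table, to set those with a match to a heat shock or ER stress element beside those without. A promoter window of 300 bases (250 before and 50 after the start site, RefSeq, GRCm38.p6) was held for 7 of the 10 members, in 11 windows, and those of Hspa8, Hsp90aa1 and Hsp90ab1 were not analysed here. The 2 arrangements of a minimal heat shock element, GAANNTTC and TTCNNGAA, read alike on both strands and can overlap each other. Of 32851 mouse promoters of this length, 7.86% held GAANNTTC, 8.52% held TTCNNGAA and 0.119% held the ER stress response element on either strand. Capitals mark the matches below, and positions are those of the first base of a match, counted from the start site. The Hspa5 stretch (chr2:34771940-34772089, plus strand) holds the ER stress response element at -65. The Hspb1 stretch (chr5:135887769-135887918, plus strand) holds GAANNTTC at -117 and -97, and that of Stub1 (chr17:25832920-25833069, minus strand) at -123. The Dnaja1 stretch (chr4:40722318-40722467, plus strand) holds GAANNTTC at -124 from the first of its 3 annotated start sites. No match was found in the windows of the other Dnaja1 start sites. The Hsph1 stretch (chr5:149636351-149636380, minus strand) holds TTCNNGAA at -33 from the first of its 2 annotated start sites. Outside the stretch shown, that window also holds TTCNNGAA at 36 and GAANNTTC at 41, both after the start site. No match was found in the windows of Hspa4 (stretch chr11:53300480-53300629, minus strand) and Dnajb1 (stretch chr8:83608025-83608174, plus strand), which says only that these letters are not there.
Hspa5: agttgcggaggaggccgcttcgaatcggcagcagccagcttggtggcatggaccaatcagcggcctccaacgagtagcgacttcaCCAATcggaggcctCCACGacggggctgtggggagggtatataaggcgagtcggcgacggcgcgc
Hspb1: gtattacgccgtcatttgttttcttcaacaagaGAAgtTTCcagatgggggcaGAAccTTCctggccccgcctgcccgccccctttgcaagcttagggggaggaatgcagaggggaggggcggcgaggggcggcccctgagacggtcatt
Dnaja1: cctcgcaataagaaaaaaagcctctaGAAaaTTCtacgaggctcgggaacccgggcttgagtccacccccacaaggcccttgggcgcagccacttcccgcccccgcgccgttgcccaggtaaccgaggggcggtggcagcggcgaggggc
Stub1: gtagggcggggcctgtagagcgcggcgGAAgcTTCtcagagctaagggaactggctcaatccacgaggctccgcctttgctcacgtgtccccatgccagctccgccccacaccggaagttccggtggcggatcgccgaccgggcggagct
Hsph1: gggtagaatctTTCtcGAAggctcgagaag
Hspa4: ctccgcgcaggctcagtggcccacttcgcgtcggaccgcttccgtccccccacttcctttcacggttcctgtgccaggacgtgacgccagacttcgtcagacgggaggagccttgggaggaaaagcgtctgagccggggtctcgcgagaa
Dnajb1: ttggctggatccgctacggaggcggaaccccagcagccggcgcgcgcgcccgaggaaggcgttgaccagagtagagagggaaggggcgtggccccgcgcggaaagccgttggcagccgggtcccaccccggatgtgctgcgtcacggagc

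The values are intensities, which the depositors had scaled so that the 2% trimmed mean of each array was 2500.59 to 2500.75. A probe set was kept for testing where it lay above the 40th percentile of the array on at least 2 arrays, a limit of 606 to 775. All 22 member probe sets were kept, and 20 of them lay above the limit on all 20 arrays. The exceptions were Hspa8 1431182_at, above it on 18 arrays, and Hspb1 1425964_x_at, above it on 16. Differences are on the log2(intensity + 16) scale, with the standard error of a limma model of all 8 groups, and a probe set was called at a two-sided adjusted p under 0.05 over all 15627 kept probe sets. Of the region markers, Gabra6, Cbln3 and Pcp2 lay below the limit on every forebrain array and above it on every cerebellum array, and Camk2a, Bcl11b and Tbr1 the reverse. All 7 cerebellar granule neuron and 6 Purkinje cell markers measured were called higher in cerebellum, and 4 of 6 cortical and striatal neuron markers lower, the other 2, Ppp1r1b (1.07) and Neurod2 (0.25), being higher in cerebellum. The 3'/5' ratio of the GAPDH control probe sets was 0.744 to 0.903. Median intensity was 1064 to 1180 on the knock-in arrays and 979 to 1072 on the wild-type arrays, so the scale itself moved with genotype.

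Between the regions, the Hsp110 gene Hsph1 and the J-domain genes Dnajb1 and Dnaja1 were lower in cerebellum than in forebrain, and the small heat shock protein Hspb1 was higher. Hsph1 had the largest difference of the members, 2.38-fold and 2.24-fold by its 2 probe sets, and Dnajb1 and Dnaja1 differed by 1.31-fold to 1.40-fold. Of the 22 probe sets, 12 were called in the comparison of cerebellum with forebrain (mean over genotypes and ages), beside 59.7% of all kept probe sets. Higher in cerebellum were 3 of them (background 32.5%), which belong to Hspb1 and Hspa5, and lower were 9 (background 27.2%), which belong to 6 genes. The members' median difference was -0.12, against 0.03 over all kept probe sets. Most genes measured here differed between these tissues, so the members' share of calls is near the background, and the sizes of the differences carry the description.

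Hsph1, the Hsp110 that frees substrates from Hsp70, read 8180 at its lowest, 9429 at the median and 12004 at its highest over the 10 cerebellum arrays with probe set 1425993_a_at. Over the 10 forebrain arrays the same probe set read 18464, 24040 and 26990. The highest cerebellum array thus lay below the lowest forebrain array. The difference was -1.25 ± 0.08 (SE; adjusted p = 6.66e-10). The second Hsph1 probe set, 1423566_a_at, read 3863, 4479 and 5144 in cerebellum against 8639, 9721 and 11659 in forebrain, again without overlap (-1.17 ± 0.07, adjusted p = 8.96e-10). In the wild-type arrays at 4 weeks alone, where no region label is in conflict, the Hsph1 differences were -1.44 and -1.30 (adjusted p = 4.14e-07 and 8.37e-07).

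Dnajb1, the J-domain partner of Hsp70 known for its strong induction by heat, read 3847, 4643 and 5172 (lowest, median and highest) in cerebellum and 5221, 6713 and 8323 in forebrain with probe set 1416755_at. Its second probe set, 1416756_at, read 3159, 3762 and 4319 against 4336, 5235 and 5798. Neither probe set had overlapping regions, although the gap between the nearest arrays was narrow in both. The differences were -0.49 ± 0.08 (adjusted p = 9.19e-05) and -0.47 ± 0.07 (adjusted p = 4.03e-05).

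Dnaja1, the constitutive J-domain partner of Hspa8, read 16050, 17214 and 18218 in cerebellum and 20949, 23732 and 26775 in forebrain with probe set 1460179_at. The cerebellum arrays of this probe set were the tightest among the members, with a highest value 1.14 times the lowest. The difference was -0.47 ± 0.05 (adjusted p = 2.86e-07), without overlap between the regions. Probe set 1416288_at of the same gene read 9504, 11264 and 13388 in cerebellum and 10887, 14794 and 19765 in forebrain. Here the regions overlapped, and the difference was -0.39 ± 0.10 (adjusted p = 0.0027). In all, 5 of the 22 member probe sets were lower in cerebellum without overlap, both of Hsph1, both of Dnajb1 and 1 of Dnaja1, beside 9.48% of all kept probe sets.

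Hspb1 went the other way. Probe set 1422943_a_at read 4379, 5142 and 7081 in cerebellum and 3072, 3966 and 5521 in forebrain. The regions overlapped, chiefly through knock-in forebrain 4 weeks replicate 1 at 5521, which lay above the cerebellum median. The difference was 0.43 ± 0.10, 1.34-fold higher in cerebellum (adjusted p = 0.00173). Probe set 1425964_x_at read 1127, 1464 and 2015 in cerebellum and 402, 816 and 1360 in forebrain, where some arrays fell below the filter limit, and differed by 0.93 ± 0.21 (adjusted p = 0.00128). The same forebrain array was the highest of its region in both probe sets.

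**Figure D1:**
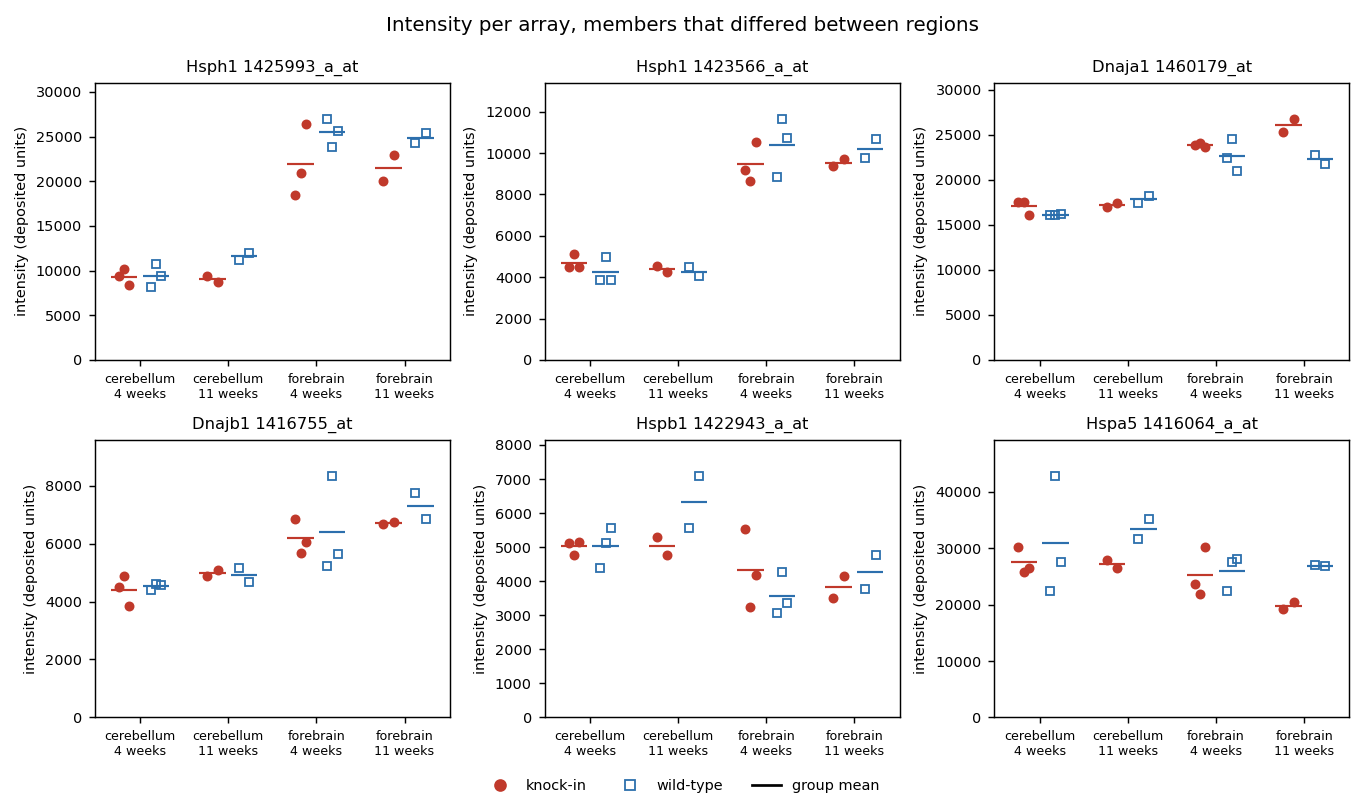
Intensity (deposited linear units, axis from 0) of 6 member probe sets on each of the 20 arrays, by region and age, with knock-in arrays as filled circles, wild-type arrays as open squares and a bar at each group mean. Both Hsph1 probe sets, Dnaja1 1460179_at and Dnajb1 1416755_at are lower on every cerebellum array than on any forebrain array, while Hspb1 and Hspa5 overlap between regions.

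The remaining regional calls were small. Hspa5, the Hsp70 of the endoplasmic reticulum, read 22329, 27717 and 42747 in cerebellum and 19188, 25253 and 30280 in forebrain with probe set 1416064_a_at (0.28 ± 0.10, adjusted p = 0.0316). Its second probe set, 1427464_s_at, had nearly the same difference without passing the threshold (0.28 ± 0.12, adjusted p = 0.0598). Hspa4, an Hsp110 of the cytosol, was lower in cerebellum with probe set 1416147_at (-0.32 ± 0.07, adjusted p = 0.000848), while its other 2 probe sets, 1416146_at and 1435194_at, gave -0.12 and -0.24 and did not pass. With quantile and cyclic loess normalization 1435194_at was called too (-0.29 and -0.32, adjusted p = 0.0453 and 0.033). Hspa4 1416147_at read 6278, 7710 and 10370 in cerebellum and 8176, 10121 and 11882 in forebrain, with overlap.

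Hsp90aa1 is the inducible cytosolic Hsp90. Its probe set 1437497_a_at read 20311, 28184 and 29970 in cerebellum and 25207, 30221 and 33614 in forebrain, with most arrays in a shared range. It was called lower in cerebellum (-0.21 ± 0.08, adjusted p = 0.034), while the other 2 probe sets gave -0.11 and -0.06 and did not pass. The call was lost after quantile (-0.14, adjusted p = 0.137) and cyclic loess normalization (-0.10, adjusted p = 0.288). Hspa8 is the constitutive Hsp70 of the cytosol. Its probe set 1420623_x_at read 49315, 56376 and 68659 in cerebellum and 57328, 64819 and 71784 in forebrain, and was called lower in cerebellum (-0.17 ± 0.07, adjusted p = 0.0393), while the other 3 gave -0.10 to -0.12 and did not pass. Over all 20 arrays the highest value of this probe set was 1.46 times the lowest, against 5.01 times for Hspb1 1425964_x_at, the widest range of the members. With cyclic loess normalization the difference of Hspa8 1420623_x_at was 0.00 (adjusted p = 0.985), and those of Hsp90aa1 1426645_at and 1438902_a_at and of Hspa8 1455789_x_at were above 0, at 0.02, 0.07 and 0.05. The direction of these 4 differences therefore depends on the scaling, while Hsp90aa1 1437497_a_at lay below 0 under each. Neither Stub1 probe set was called (0.09 ± 0.07 and -0.03 ± 0.07, adjusted p = 0.266 and 0.738).

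The 3 regional calls nearest the threshold moved across it as single arrays were left out, while their differences stayed on 1 side of 0. Over the 20 omissions the difference was 0.21 to 0.33 for Hspa5 1416064_a_at, -0.20 to -0.14 for Hspa8 1420623_x_at and -0.24 to -0.16 for Hsp90aa1 1437497_a_at. The call of Hspa5 1416064_a_at was lost, with an adjusted p up to 0.0682, without knock-in cerebellum 4 weeks replicate 1, knock-in forebrain 4 weeks replicate 2, wild-type forebrain 4 weeks replicate 1, knock-in cerebellum 11 weeks replicate 1, wild-type cerebellum 11 weeks replicate 2, knock-in forebrain 11 weeks replicate 1 or either wild-type forebrain 11 weeks array. That of Hspa8 1420623_x_at was lost in 13 of the 20 omissions (adjusted p up to 0.109, without wild-type cerebellum 11 weeks replicate 1). It was kept only without replicate 1 of either genotype in cerebellum at 4 weeks, knock-in forebrain 4 weeks replicate 2, wild-type forebrain 4 weeks replicate 2 or 3, wild-type cerebellum 11 weeks replicate 2 or wild-type forebrain 11 weeks replicate 1. That of Hsp90aa1 1437497_a_at was lost in 9 omissions (adjusted p up to 0.0878, without knock-in cerebellum 11 weeks replicate 2). The others were wild-type cerebellum 4 weeks replicate 2, knock-in forebrain 4 weeks replicate 1, wild-type forebrain 4 weeks replicate 2, wild-type cerebellum 11 weeks replicate 2 and all 4 forebrain arrays at 11 weeks. The calls of Hsph1, Dnajb1, Dnaja1, Hspb1 and Hspa4 1416147_at were kept in all 20 omissions. In the other direction, Hspa4 1435194_at was called without knock-in forebrain 4 weeks replicate 3, wild-type forebrain 4 weeks replicate 1 or knock-in forebrain 11 weeks replicate 1 (-0.28 to -0.31, adjusted p from 0.0244 to 0.0494). Hspa5 1427464_s_at was called without wild-type cerebellum 4 weeks replicate 1, wild-type forebrain 4 weeks replicate 3 or knock-in cerebellum 11 weeks replicate 2 (0.32 to 0.35, adjusted p from 0.0107 to 0.0425). In the wild-type arrays at 4 weeks alone, tested with the spread of all 20 arrays, 7 member probe sets were called. They were both of Hsph1, both of Dnajb1, both of Hspb1, and Dnaja1 1460179_at. There Hspa4 1416147_at gave -0.29 (adjusted p = 0.0844) and Dnaja1 1416288_at gave -0.32 (adjusted p = 0.161).

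**Figure D2:**
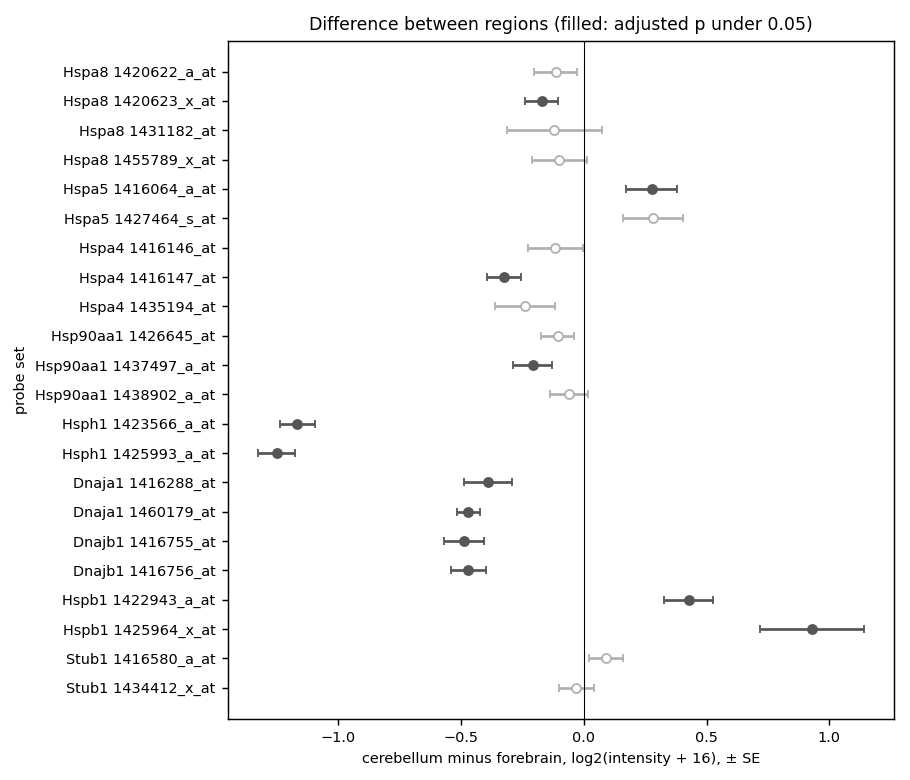
Difference between cerebellum and forebrain for each of the 22 member probe sets (log2 units, horizontal axis, bars are ± SE, filled points have an adjusted p under 0.05). The 2 Hsph1 probe sets lie near -1.2, the Dnaja1 and Dnajb1 probe sets between -0.39 and -0.49, and the Hspb1 probe sets at 0.43 and 0.93.

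Cell composition also differed between the regions, and in bulk tissue fewer cells of a type and less RNA per cell cannot be told apart. All 9 measured microglial markers were lower in cerebellum, with a summed intensity of 15912 to 19123 against 37996 to 51271 in forebrain. All 7 oligodendrocyte markers were higher, with sums of 121489 to 207717 against 73061 to 145214. Of 11 immediate early and stress genes, which respond to neuronal activity, 7 were lower in cerebellum and 2 higher, with a median difference of -1.43. The part of these differences in those of Hsph1, Dnajb1, Dnaja1 and Hspb1 was not tested.

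Between the genotypes, 2 of the 22 member probe sets were called in the mean comparison. In the mean of the 4 region and age groups, Stub1 1434412_x_at was 1.32-fold lower in knock-in mice and Hspa4 1416147_at was 1.27-fold higher, and no other member probe set was called. The 1 higher stands beside 15.0% of all kept probe sets and the 1 lower beside 8.65%. Counts of 1 among 22 probe sets, several to a gene, are too small to set the members apart from these shares. At an unadjusted p under 0.05 the count was 5 of 22, beside 37.7% of all kept probe sets. The members' median difference was -0.07, against 0.03 over all kept probe sets. Over all kept probe sets, 2350 were called higher and 1351 lower as deposited, against 1575 and 1555 after quantile normalization and 1395 and 1887 after cyclic loess normalization. The 2 member calls were the same under each of these.

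Stub1, the ubiquitin ligase that couples Hsp70 and Hsp90 to degradation, had the most regular difference. With probe set 1434412_x_at the cerebellum arrays at 4 weeks read 2758, 3508 and 2566 in knock-in mice against 4279, 3898 and 4269 in wild-type mice. At 11 weeks they read 3437 and 3865 against 4524 and 4890. In forebrain the values were 2985, 3113 and 3431 against 4537, 4945 and 3661 at 4 weeks, and 3610 and 3710 against 4605 and 4336 at 11 weeks. In all 4 comparisons the highest knock-in value was lower than the lowest wild-type value. This held for no other member probe set, and for 0.998% of all kept probe sets. The mean difference was -0.40 ± 0.07 (adjusted p = 0.00185), and it remained called in each of 28 other settings and array omissions, with adjusted p from 0.000763 to 0.00625. Group by group it was -0.50 ± 0.13 in cerebellum at 4 weeks (adjusted p = 0.123), -0.37 ± 0.16 at 11 weeks (0.296), -0.45 ± 0.13 in forebrain at 4 weeks (0.0443) and -0.29 ± 0.16 at 11 weeks (0.411).

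The second Stub1 probe set, 1416580_a_at, did not show this. At 4 weeks it read 10588, 11693 and 8987 in knock-in cerebellum against 13268, 12631 and 13618 in wild-type cerebellum, and 10746, 10528 and 11162 against 12870, 13160 and 11397 in forebrain. The knock-in arrays lay below the wild-type arrays in both regions at that age. How many of all kept probe sets did the same was not computed. At 11 weeks it read 13519 and 15726 against 14252 and 12279 in cerebellum, and 11678 and 15125 against 11166 and 11739 in forebrain, where the genotypes overlapped. The mean difference was -0.05 ± 0.07 (adjusted p = 0.641). The genotype difference at 11 weeks minus that at 4 weeks was 0.45 ± 0.14 (adjusted p = 0.524). Within the groups the 2 probe sets moved together from array to array (r = 0.63 over 20 arrays, which share their scaling). Their mean genotype differences nevertheless differed by 0.35, which an exact permutation test of genotype labels within region and age put at p = 0.000139 (two-sided, the smallest p that its 14400 arrangements can give) and at 0.0025 after Benjamini-Hochberg adjustment over the 18 pairs of probe sets of a member gene. In this array family the suffix _x_at marks a probe set with probes that also match other transcripts, and _a_at one that matches several transcripts of a gene.

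Hspa4 showed a like split. Probe set 1416147_at read 9329, 6649 and 8380 in knock-in cerebellum at 4 weeks against 6784, 7147 and 8273 in wild-type cerebellum, where the genotypes overlapped. At 11 weeks it read 10370 and 10327 against 6278 and 7008. In forebrain it read 11692, 11429 and 11882 against 10097, 8802 and 8176 at 4 weeks, and 10144 and 10951 against 8591 and 9567 at 11 weeks. In these 3 groups all knock-in arrays lay above all wild-type arrays. The share of all kept probe sets that were higher without overlap in 3 groups was not computed. The mean difference of 1416147_at was 0.34 ± 0.07 (adjusted p = 0.0041), called in all 29 other settings and omissions with adjusted p from 0.00138 to 0.0133. The largest single difference, 0.64 ± 0.15 in cerebellum at 11 weeks, had an adjusted p of 0.0825.

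Probe set 1416146_at of Hspa4 pointed the other way. It read 2507, 2100 and 2219 in knock-in forebrain at 4 weeks against 2773, 3560 and 3357 in wild-type forebrain, without overlap, and overlapped between genotypes in the other 3 groups. Its mean difference was -0.26 ± 0.11 (adjusted p = 0.0975). The third, 1435194_at, gave 0.14 ± 0.12 (adjusted p = 0.442). The genotype differences of 1416146_at and 1416147_at differed by -0.60 (exact permutation p = 0.00194, adjusted 0.0175 over the 18 pairs). Of the 18 pairs, only these and the Stub1 pair passed, the other 16 having an adjusted p of 0.0941 or more. A gene-level statement on Stub1 or Hspa4 therefore depends on the probe set.

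**Figure D3:**
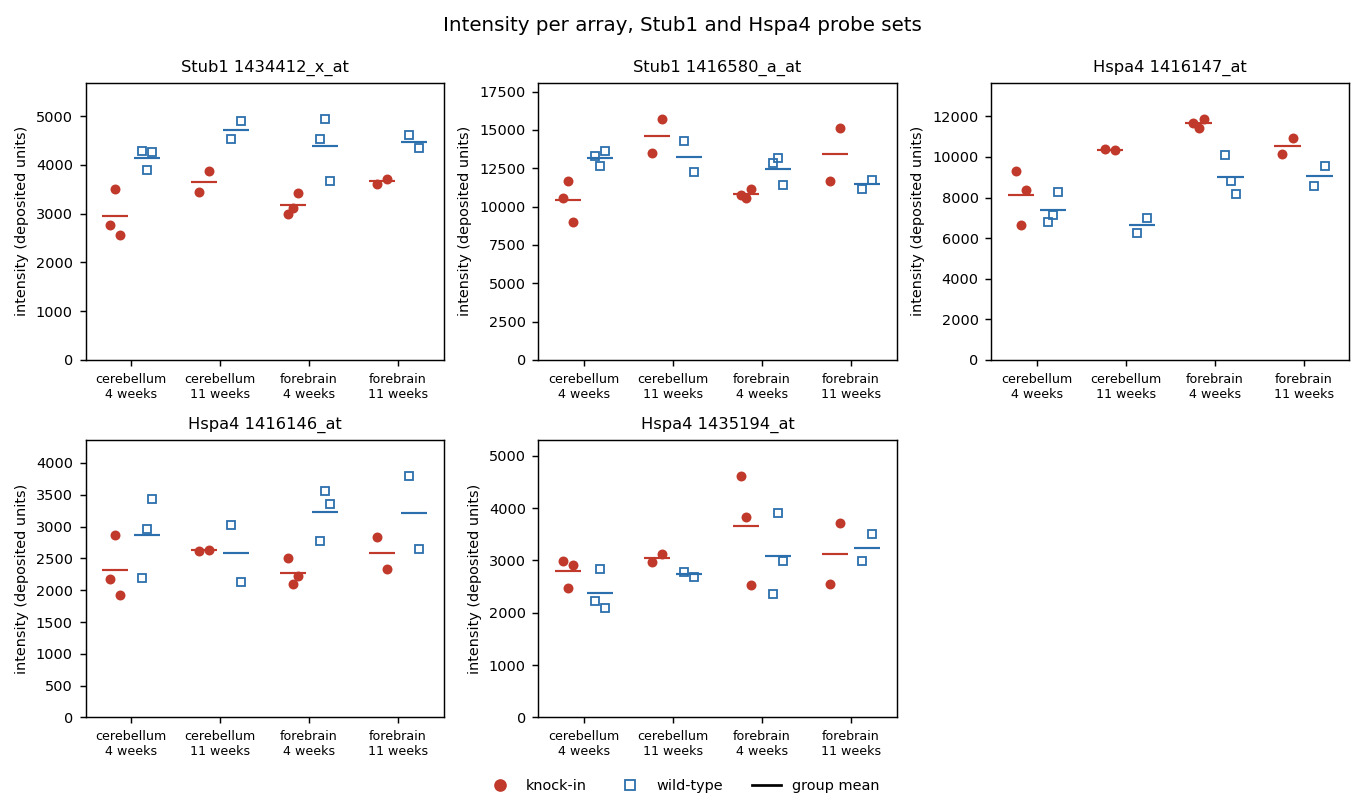
Intensity (deposited linear units, axis from 0) of the 2 Stub1 and 3 Hspa4 probe sets on each of the 20 arrays, by region and age, with knock-in arrays as filled circles, wild-type arrays as open squares and a bar at each group mean. Stub1 1434412_x_at is lower in knock-in arrays in all 4 pairs of groups, Hspa4 1416147_at is higher without overlap in 3, and the other probe sets of these genes do not repeat this.

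In the separate genotype comparisons limma called 0 of 22 member probe sets in cerebellum at 4 weeks (0.0512% of all kept, smallest adjusted p among members 0.123), 0 in cerebellum at 11 weeks (0.346%, 0.0825) and 0 in forebrain at 11 weeks (0.864%, 0.299). At an unadjusted p under 0.05 these counts were 2, 4 and 1 of 22, beside 13.3%, 14.8% and 15.6% of all kept probe sets. In forebrain at 4 weeks 1 was called, Stub1 1434412_x_at, lower in knock-in mice (2.42% of all kept were called lower). In that comparison 773 probe sets were called higher and 378 lower as deposited, against 460 and 424 after quantile and 381 and 511 after cyclic loess normalization. Over the 20 single-array omissions the Stub1 difference was -0.58 to -0.36. It fell outside the threshold in 17 of them (adjusted p up to 0.161, at -0.36, without wild-type forebrain 4 weeks replicate 2), and was called only without knock-in cerebellum 4 weeks replicate 2 or 3 or wild-type forebrain 4 weeks replicate 3. No member's genotype difference was called as differing between regions (0.282% of all kept were) or between ages (0% of all kept). At an unadjusted p under 0.05 these counts were 0 and 1 member, beside 9.14% and 7.51% of all kept probe sets.

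Without wild-type cerebellum 4 weeks replicate 1, the mean genotype comparison called 5 member probe sets instead of 2. The added ones were all lower in knock-in mice: Hspa5 1416064_a_at (-0.28, adjusted p = 0.0419), Hspa4 1416146_at (-0.31, 0.0466) and Hsph1 1425993_a_at (-0.22, 0.0418). With all arrays these 3 gave -0.22 ± 0.10 (0.128), -0.26 ± 0.11 (0.0975) and -0.20 ± 0.08 (0.0646). For Hspa5 the spread sat within the wild-type cerebellum arrays at 4 weeks, which read 22329, 42747 and 27519 against 30124, 25826 and 26572 in knock-in mice. At 11 weeks Hspa5 1416064_a_at read 27914 and 26442 in knock-in cerebellum against 31712 and 35151, and 19188 and 20443 in knock-in forebrain against 26932 and 26790. Hspa5 1416064_a_at was thus lower without overlap in both regions at the later age, with 2 arrays per group. The share of all kept probe sets that did so was not computed. Neither difference passed (-0.30 ± 0.23, adjusted p = 0.594, and -0.44 ± 0.23, adjusted p = 0.379).

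**Figure D4:**
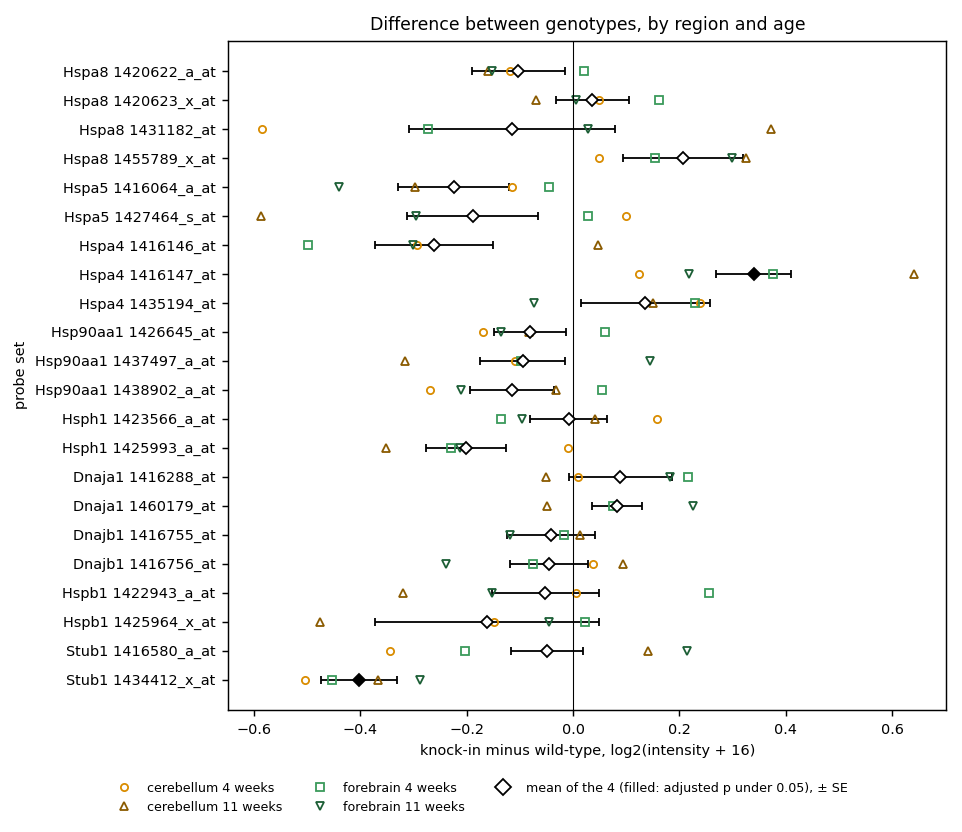
Difference between knock-in and wild-type mice for each of the 22 member probe sets (log2 units, horizontal axis): coloured symbols are the 4 region and age groups, and diamonds the mean of the 4 with bars of ± SE, filled where the adjusted p is under 0.05. Stub1 1434412_x_at lies at -0.40 and Hspa4 1416147_at at 0.34, and the other 20 means scatter from -0.26 to 0.21.

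Other measures moved with genotype beside Stub1 and Hspa4. The summed intensity of 6 Purkinje cell markers was lower in knock-in mice without overlap in all 4 groups: 237645 to 241588 against 260844 to 268966 in cerebellum at 4 weeks, 207347 to 241713 against 265334 to 267401 at 11 weeks, 41365 to 47283 against 52971 to 59819 in forebrain at 4 weeks, and 36737 to 38828 against 47558 to 49144 at 11 weeks. Of these 6 markers, 3 were called lower and 1 higher in the mean comparison. Of all kept probe sets taken singly, 0.998% were lower without overlap in all 4 groups. The forebrain sums came mainly from Pcp4 and Calb1 (mean intensity 24891 and 16323 in forebrain), and Pcp2 lay below the limit on every forebrain array. They therefore describe these genes and not Purkinje cells. In forebrain at 11 weeks Rgs8 was called lower (-0.80, limma adjusted p = 0.00822) and Slc1a6 higher (0.78, 0.0295). Summed over 9 microglial markers, intensity was higher in knock-in mice without overlap at 4 weeks (17335 to 19123 against 15912 to 16302 in cerebellum, 46108 to 51271 against 40365 to 42980 in forebrain). At 11 weeks the sums overlapped between genotypes in both regions. Of 11 immediate early and stress genes, 3 were called lower in knock-in mice and 0 higher in the mean comparison, and 4 lower and 0 higher in forebrain at 4 weeks. The part of these markers and genes in the Stub1 and Hspa4 differences was not tested. After quantile normalization, which makes the arrays' medians equal, the mean differences were -0.41 for Stub1 1434412_x_at and 0.38 for Hspa4 1416147_at.

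No member was called for a change with age. Between 4 and 11 weeks limma called 0 of 22 member probe sets in cerebellum (1.75% of all kept, smallest adjusted p 0.223), 0 in forebrain (0.0960%, 0.612) and 0 as differing between the regions (0.0512%, 0.89). At an unadjusted p under 0.05 these counts were 2, 0 and 0, beside 15.5%, 11.7% and 6.35% of all kept probe sets. The smallest unadjusted p-values came from Stub1 in cerebellum, where 1416580_a_at gave 0.25 ± 0.10 and 1434412_x_at 0.25 ± 0.10 (adjusted p = 0.223 and 0.248).

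How closely the members varied together from array to array depended on the probe set. With 1 probe set per gene, the one with the highest mean, and deviations from the group means over 20 arrays, the median correlation of the 36 gene pairs was 0.19, from -0.39 to 0.72, and 5 pairs lay over 0.5. These deviations share each array's scaling. The highest was that of Hspa5 with Hsp90aa1 (r = 0.72, and 0.62 without wild-type cerebellum 4 weeks replicate 2, where both were at their highest of all arrays). Dnaja1 and Dnajb1, both J-domain proteins, followed (r = 0.71, and 0.53 without wild-type forebrain 4 weeks replicate 2), then Hspa5 with Hsph1 (r = 0.61). The lowest was Hspa8 with Hsp90aa1 (r = -0.39). The second Hsph1 probe set, 1423566_a_at, ran with some probe sets of several members: r was 0.75 with Hsp90aa1 1438902_a_at, 0.72 with Hspa5 1416064_a_at, 0.70 with Dnajb1 1416756_at, 0.67 with Dnaja1 1416288_at and 0.61 with Hspa8 1420622_a_at, against -0.62 with Hspa8 1431182_at. Other probe sets of these genes gave 0.67 (Hspa5 1427464_s_at), 0.53 (Hsp90aa1 1426645_at) and 0.50 (Dnajb1 1416755_at). Lower still were Hspa8 1455789_x_at (0.29), Hsp90aa1 1437497_a_at (0.12), Dnaja1 1460179_at (0.10) and Hspa8 1420623_x_at (-0.18). Probe sets of a single gene also differed in this: those of Hspa5 and of Hspb1 moved together (r = 0.88 and 0.86), those of Dnaja1 did not (r = -0.01), and Hspa8 1420622_a_at ran against 1431182_at (r = -0.58).

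The mean deviation of Hspa8, Hsp90aa1, Hsph1, Dnaja1 and Dnajb1 was set against that of every gene outside the members over the 20 arrays. The brightest kept probe set stood for each gene. The 8 genes most like it were Rassf2 (r = 0.85), Rragc (0.85), Ring1 (0.85), Ipo8 (0.82), D030056L22Rik (0.81), Eif4a2 (0.81), Csnk1a1 (0.79) and Mt3 (0.79), against a 99th percentile of 0.64 over these genes outside the members.

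The wider chaperone system was taken from lists of other genes, with the brightest kept probe set standing for each gene. In the mean genotype comparison 16.2% of all 9105 genes, taken in this way, were called higher in knock-in mice and 8.48% lower, and their median difference was 0.04. The counts of these short lists are given as descriptions beside those shares. Of 7 other Hsp70 and Hsp110 genes, 1 was higher in knock-in mice, the ER Hsp110 Hyou1 (0.41 ± 0.12, adjusted p = 0.0185), with a list median of 0.01. Of 32 other J-domain genes, 3 were higher and 3 lower (median -0.03), led by Dnajc21 (-0.65 ± 0.11, adjusted p = 0.00128) and the BiP partner Dnajb11 (-0.76 ± 0.13, adjusted p = 0.00176). Of 31 genes of the ER chaperones and unfolded protein response, the setting in which Hspa5 works, 4 were higher and 4 lower (median 0.06). The higher ones included the stress sensor Ern1 (0.42 ± 0.10, adjusted p = 0.00847) and Erp29 (0.43 ± 0.11, adjusted p = 0.0104).

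Among 11 nucleotide exchange and adaptor proteins of Hsp70, 3 were higher, Grpel1 (0.47), Bag2 (0.40) and Hspbp1 (0.29), and Bag5 was lower (-0.26), with adjusted p from 0.0022 to 0.016. Of 22 Hsp90 paralogs and co-chaperones, 1 was higher, the Hsp70-Hsp90 adaptor Stip1 (0.25, adjusted p = 0.0194), and 6 were lower, among them Chordc1 (-0.26, adjusted p = 0.00645). Nudc was among these with -0.23, while a second Nudc probe set gave 0.38 (adjusted p = 0.0361). Of 19 ubiquitin ligases and partners of protein quality control, the circle in which Stub1 acts, 1 was higher and 3 lower, among them Ube2w, an E2 enzyme (-0.34, adjusted p = 0.00151, and -0.17 by a second probe set, adjusted p = 0.25). Of 5 other small heat shock proteins, Cryab was lower (-0.34, adjusted p = 0.00737), while a second Cryab probe set gave 0.03 (adjusted p = 0.918). Of 16 heat shock factors and their inducible targets, 3 were higher and 2 lower, of 15 chaperonin and prefoldin subunits 1 was higher, and of 12 mitochondrial chaperones 1 was higher, Grpel1 again.

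Between regions 32.0% of all genes were called higher in cerebellum and 29.1% lower. The Hsp90 co-chaperones that bind steroid receptors went opposite ways: Fkbp4 was higher in cerebellum (1.26 ± 0.06, adjusted p = 2.96e-11) and Fkbp5 lower (-0.99 ± 0.10, adjusted p = 3.38e-07), each with a second probe set in the same direction (1.24 and -0.76). Of the 22 genes of that list, 5 were higher and 6 lower. Of 31 ER chaperones and unfolded protein response genes, 13 were higher in cerebellum and 2 lower (median 0.09, against 0.01 over all genes), among them Derl1 (0.52), Eif2ak3 (0.55), Dnajc3 (0.59) and the BiP exchange factor Sil1 (0.44). Hspa5 lay on the same side. Of 32 J-domain genes 7 were higher and 11 lower, and the neuronal Dnajb5 had the largest fall (-1.13 ± 0.12, adjusted p = 9.58e-07), on the side of Dnaja1 and Dnajb1. Of 5 small heat shock proteins 3 were higher, Cryab (0.49), Hspb8 (0.43) and Hspb11 (0.48), on the side of Hspb1, although 2 further Hspb8 probe sets gave 0.12 and 0.26 and did not pass (adjusted p = 0.277 and 0.132). The 1 called lower, Hspb3, passed the limit on 10 arrays of 20, with a mean intensity of 388 in cerebellum, below that limit, and 1039 in forebrain. Of 7 Hsp70 and Hsp110 genes, Hspa14 (0.90), Hspa4l (0.43) and Hspa9 (0.15) were higher and Hspa2 was lower (-0.39). Further Hspa9 probe sets gave 0.14 and 0.35 and did not pass (adjusted p = 0.168 and 0.149). A second Hspa4l probe set gave 0.49 (adjusted p = 3.41e-05), so the Hsp110 Hspa4l and Hsph1 differed in direction.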

How the data were processed

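The deposited values are linear intensities, 1 for each probe set of an array, scaled by the authors to a common trimmed mean. Which software summarised the probes is not given in the sources used here. There are 22690 probe sets, of which 64 are controls and 20380 carry a single symbol in the platform annotation. Values were taken as log2(intensity + 16) and filtered, which kept 15627 probe sets of 9105 genes. The 8 group means were estimated together from the 20 arrays by lmFit and eBayes of limma 3.58.1 (R 4.3.3), with 12 residual and 3.446 prior degrees of freedom and Benjamini-Hochberg adjustment. Means over groups weight groups equally. Arrays have no depth, and their number limits the precision. The members, the gene lists and the settings were chosen with earlier results of these data known. All member probe sets were named, with up to 4 called genes per list by p and 8 genes by likeness. Replicate numbers were not used as pairs in the main model. Deviations of same-numbered arrays of the 2 genotypes correlated from -0.099 to 0.052, and those of the 2 regions from -0.023 to 0.113. In 7 of 10 region pairs the correlation was highest with the same number, and so it was in 5 of 10 genotype pairs. At the later age each group had 2 arrays, whose deviations from the group mean mirror each other. Both replicate numbers then gave the same value, so the pairs at that age were not separate and these counts overstate the evidence. These values cannot show whether 2 arrays came from 1 animal. Alternatives covered normalization, offset, filter, probe set choice, variance trend, blocks and leaving out each array.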

Additional observations from a re-analysis of the deposited data

Results flagged for a closer look

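Hsp90aa1 1437497_a_at, a probe set of the inducible cytosolic Hsp90, moved in opposite directions in the 2 regions at 11 weeks. In cerebellum the knock-in arrays read 25048 and 21424 and the wild-type arrays 29970 and 27724 (-0.32). In forebrain the knock-in arrays read 33511 and 32950 and the wild-type arrays 30294 and 29807 (0.15). The cerebellum difference minus the forebrain difference was -0.46. All knock-in arrays lay below the wild-type arrays in one region and above them in the other, with 2 arrays per group. The probe set was flagged for this separation, and the share of all kept probe sets that show it was not computed. The difference between regions at 11 weeks was not tested. Over both ages it was -0.24 ± 0.16 (limma, adjusted p = 0.745). The other 2 Hsp90aa1 probe sets did not show it.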

How the results depend on the processing

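The count of called member probe sets was 0 under every alternative run for genotype in forebrain at 11 weeks, for age in either region, and for the differences of genotype between regions or ages and of age between regions. In cerebellum at 4 weeks the count of 0 ranged from 0 to 1 over single-array omissions, with Stub1 1434412_x_at called without knock-in replicate 2. In cerebellum at 11 weeks it was 1 with an intensity trend in the variance (Hspa4 1416147_at). In forebrain at 4 weeks the count of 1 was 0 with quantile normalization, cyclic loess, no filter, 1 probe set per gene, a fixed replicate block or only the arrays compared, and 0 to 2 over omissions. The mean genotype count of 2 was 1 with 1 probe set per gene, 3 with the intensity trend (Hsph1 1425993_a_at added, -0.20, adjusted p = 0.0385) and 2 to 5 over omissions. The regional count of 12 was 7 with 1 probe set per gene and 7 in wild-type arrays at 4 weeks alone, a setting chosen after seeing the data. It was 9 with no filter, which lost Hspa5 1416064_a_at, Hspa8 1420623_x_at and Hsp90aa1 1437497_a_at (adjusted p = 0.0518, 0.0597 and 0.0538), 11 with cyclic loess, 12 with quantile normalization (Hspa4 1435194_at gained, Hsp90aa1 1437497_a_at lost), 13 with the intensity trend and 9 to 13 over omissions. The regional difference of Hspa8 1420623_x_at was reversed to 0.0015 with cyclic loess. With the replicate block the adjusted p of the Stub1 call in forebrain at 4 weeks was 0.0554 (fixed) and 0.0456 (random, consensus correlation 0.0574), and no other member call changed. The causes were not tested. Differences are smaller on the offset scale for dim probe sets, which touches Hspa8 1431182_at and Hspb1 1425964_x_at, and 2 or 3 arrays per group limit every genotype comparison.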
